A study of Homo sapiens with 10 samples.

Results

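The genes described here are 8 genes of ferroptosis lipid remodelling and quinone defence: ACSL4, LPCAT3, ACSL3, MBOAT1, MBOAT2, AIFM2, DHODH and GCH1. They were taken by name from the gene tables, which list 61533 genes, and all 8 were among the 16181 genes that passed the filter on low counts. The libraries came from T24, a cell line of human bladder cancer, and from T24R2, a line derived from T24 by repeated selection with cisplatin, with 5 libraries of each. Both lines were harvested at day 3 of growth in RPMI with 10% fetal bovine serum and penicillin/streptomycin. According to the methods of the study, T24R2 is kept in cisplatin, whereas the labels give the same drug-free medium for both lines, so the resistant state and the presence of the drug cannot be told apart in this comparison. T24R2 is 1 derived line, and nothing in the labels says that the 5 replicates were separate cultures, so p-values measure the spread between these libraries, which may be technical. The libraries held 9257843 to 10247941 counts in T24, and in T24R2 9591379 to 10840954.

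Ferroptosis is an iron-dependent form of cell death in which polyunsaturated acyl chains of membrane phospholipids are peroxidised. The enzymes that load membranes with polyunsaturated chains favour it, those that load monounsaturated chains in their place oppose it, and cystine uptake, glutathione and the peroxidase GPX4 repair the peroxides. A further line of defence traps lipid radicals with reduced coenzyme Q, vitamin K or tetrahydrobiopterin, independently of GPX4. ACSL4 and LPCAT3 belong to the polyunsaturated arm, ACSL3, MBOAT1 and MBOAT2 to the monounsaturated arm, and AIFM2, DHODH and GCH1 to the radical-trapping arm.

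The labelled cell type was checked with marker genes. Of 14 urothelial and epithelial markers, 9 were above 3 counts in some T24 library and 8 in some T24R2 library. Their summed level was 4935 to 5669 CPM (counts scaled to library size after TMM normalisation) in T24 and 3006 to 3206 CPM in T24R2. The most abundant marker in both lines was KRT7, at 2242 CPM in T24 and 1370 CPM in T24R2. The keratins KRT8 and KRT18 were also abundant in both lines. KRT20 had 0 counts throughout, and CDH1, UPK1B and UPK3A did not exceed 3 counts in any library. KRT19 was at 267 CPM in T24 and 0.0887 CPM in T24R2, and GATA3, a luminal urothelial factor, was at 22.1 and 0.214 CPM. Fibroblast and leukocyte markers summed to at most 11.2 and 1.79 CPM in any library. Endothelial markers summed to 225 to 278 CPM in T24 and 1.604 to 2.50 CPM in T24R2, nearly all of it CDH5 in T24, while KDR was at 0 in T24. These differences between the lines accompany every result below, and their part in those results was not tested.

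Between the lines, 3 of the 8 genes rose in T24R2 and 1 fell. ACSL4, LPCAT3 and ACSL3 rose to 165%, 153% and 185% of their T24 means, and MBOAT1 fell to 57.5%. A gene was called changed where its adjusted p was under 0.05 and its log2 fold change over 0.5 in absolute value, with p-values from edgeR's quasi-likelihood test and Benjamini-Hochberg adjustment over all genes tested. By this rule 51.4% of all genes tested were called, 24.9% higher and 26.5% lower in T24R2, so 4 called genes of 8 is no more than the share among all genes. These were 4027 genes higher and 4282 lower, and with library size as the only scaling 5206 were higher and 3431 lower, with the 4 calls among the 8 unchanged. The adjusted p alone was under 0.05 for 6 of the 8 genes, against 75.5% of all genes. The 5 libraries of T24R2 lay wholly above or wholly below the 5 of T24 for 6 of the 8 genes, 3 in each direction, against 61.2% of all genes. The median log2 fold change was -0.22 over the 8 genes and 0.01 over all genes tested. In bulk RNA, fewer cells that express a gene and less RNA per cell cannot be told apart.

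**Figure D1:**
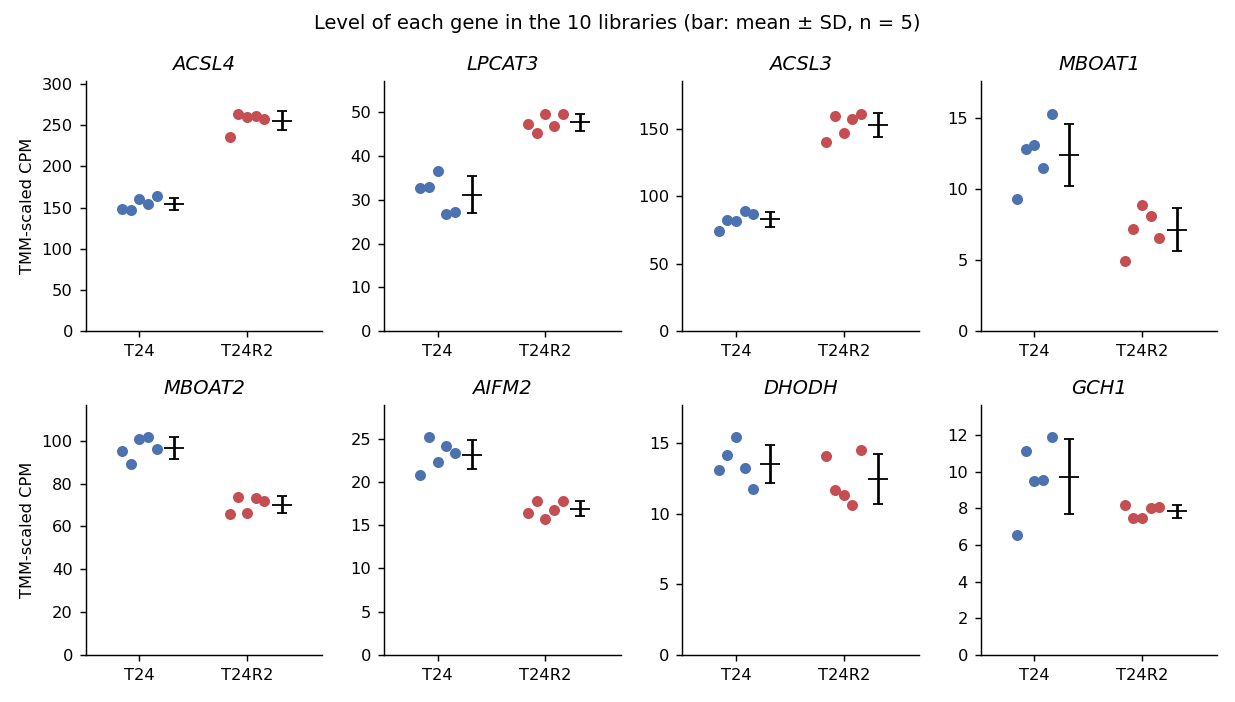
Level of each of the 8 genes in CPM scaled by TMM (vertical axes, each starting at 0) in the 5 libraries of T24 (blue) and the 5 of T24R2 (red), with the mean ± SD beside each group. The libraries of the lines do not overlap except for DHODH and GCH1, where the ranges share values.

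The genes lie on 7 chromosomes of hg38, with ACSL3 and MBOAT2 far apart on chromosome 2. ACSL4 (ENSG00000068366.21) spans chrX:109624244-109733403 on the minus strand, LPCAT3 (ENSG00000111684.11) spans chr12:6976185-7018477 on the minus strand, and ACSL3 (ENSG00000123983.15) spans chr2:222860942-222944639 on the plus strand. MBOAT1 (ENSG00000172197.11) spans chr6:20099684-20212469 and MBOAT2 (ENSG00000143797.12) spans chr2:8852690-9003709, both on the minus strand. AIFM2 (ENSG00000042286.15) spans chr10:70098223-70132934 on the minus strand, DHODH (ENSG00000102967.12) spans chr16:72008588-72027664 on the plus strand, and GCH1 (ENSG00000131979.20) spans chr14:54842008-54902826 on the minus strand. Counts are summed over all exons of a gene, from 2925 bases for GCH1 to 14436 bases for ACSL3.

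Promoter sequence from RefSeq (GRCh38.p14) was matched for 6 of the 8 genes, all except MBOAT1 and GCH1. Letters were searched on both strands in the 250 bases before the start site. GGGCGG, the GC box, occurred in all 6 and in 42.6% of 35116 promoters. These 6 regions were 66.8% to 84% G or C, and the promoters compared were not matched for this. CCAAT occurred in LPCAT3, ACSL3 and DHODH and in 32.01% of promoters. TGACNNNGC, the core of the antioxidant response element that NFE2L2 (NRF2) binds, occurred in AIFM2 alone of the 6 and in 10.9% of promoters. TGACGTCA, the cyclic AMP response element, and TCACNCCAC, a sterol regulatory element, were found in none of the 6 and in 1.65% and 0.883% of promoters. The windows below are shown for the 3 genes that rose together and for AIFM2, the gene with the antioxidant core. Each runs 5′ to 3′ on the strand of its gene, with matched letters in capitals, and those of ACSL4 and AIFM2 lie inside annotated exons of the same genes.
ACSL4, chrX:109733332-109733361, minus strand: cgcccccgctCCGCCCGCCCctccgggcgc
LPCAT3, chr12:7018531-7018560, minus strand: gccgcgGGGCGGgcctccagCCAATgcgca
ACSL3, chr2:222860799-222860828, plus strand: accccgttcCCGCCCCCGCCCcgcgcagac
AIFM2, chr10:70132826-70132855, minus strand: gcacgagtGCTGAGTCAcgccCCGCCCggg
In these windows CCGCCC is the GC box read from the opposite strand. In ACSL4 and ACSL3 the capitals hold overlapping or adjoining GC boxes, and in LPCAT3 they hold a GC box and a CCAAT box. GCTGAGTCA in AIFM2, starting 22 bases before the start site, is TGACNNNGC read from the opposite strand, and it also contains TGAGTCA, the letters that AP-1 factors bind. A match describes the letters only, and binding was not measured in these libraries.

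To compare levels between genes, counts were divided by exon length and scaled to the same sum in every library (TPM). In T24 the order from high to low was ACSL4 (47.6 ± 2.83 TPM, SD, n = 5), MBOAT2 (34.2 ± 2.25), LPCAT3 (20.4 ± 2.62), ACSL3 (17.7 ± 1.42), AIFM2 (13.8 ± 1.03), GCH1 (10.2 ± 2.19), MBOAT1 (8.83 ± 1.62) and DHODH (6.01 ± 0.600). The ranges of LPCAT3 and ACSL3 overlapped, and neither was the higher in all 5 libraries. The ranges of AIFM2 and GCH1, of GCH1 and MBOAT1 and of MBOAT1 and DHODH overlapped too, but within each of the 5 libraries AIFM2 was above GCH1, GCH1 above MBOAT1 and MBOAT1 above DHODH. In T24R2 the order was ACSL4 (91.8 ± 4.80 TPM), ACSL3 (38.0 ± 2.62), LPCAT3 (36.4 ± 1.34), MBOAT2 (29.0 ± 1.90), AIFM2 (11.8 ± 0.736), GCH1 (9.60 ± 0.424), DHODH (6.45 ± 0.912) and MBOAT1 (5.93 ± 1.25). There, ACSL3 overlapped LPCAT3 and DHODH overlapped MBOAT1, with no constant order within libraries. MBOAT2 thus stood above ACSL3 in every T24 library and below it in every T24R2 library. The same held for LPCAT3 on the counts as deposited, but its level and rank depend on how reads shared with EMG1 on the opposite strand are assigned. By shared bases, EMG1 could account for 25.8 of the 31.2 CPM of LPCAT3 in T24 and for 33.0 of the 47.6 CPM in T24R2. Among all genes tested, ACSL4 was at percentile 79.3 of TPM in T24 and 89.2 in T24R2, whereas DHODH was at 28.7 and 27.4. TPM lacks the TMM scaling used for the fold changes, so values in TPM are read within a line only.

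**Figure D2:**
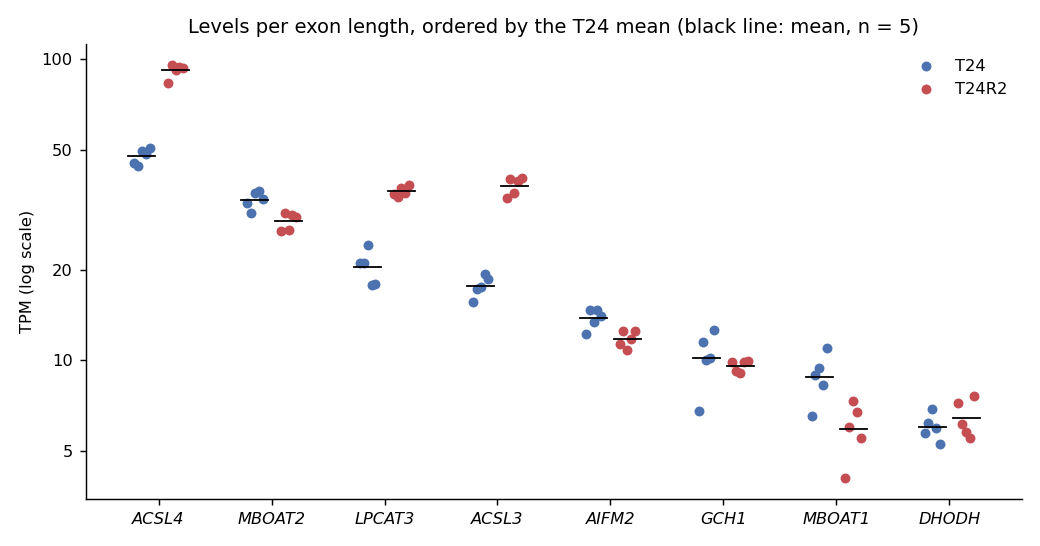
TPM of the 8 genes (log axis) in the 5 libraries of T24 (blue) and of T24R2 (red), ordered by the T24 mean, with a black line at each mean. ACSL4 is the highest of the 8 in both lines, and MBOAT2 lies above ACSL3 in T24 and below it in T24R2, while the points of LPCAT3 include reads that may belong to EMG1.

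ACSL4 and LPCAT3, the enzymes of the polyunsaturated arm, rose together in T24R2. ACSL4 couples long polyunsaturated fatty acids such as arachidonic acid to coenzyme A. Its levels in replicates 1 to 5 were 149, 147, 160.0, 154 and 164 CPM in T24 and 235, 264, 259.7, 261 and 258 CPM in T24R2. Every T24R2 library lay above every T24 library, and T24R2 replicate 1 was the lowest of its group. The mean went from 155 ± 7.18 to 255 ± 11.5 CPM (SD, n = 5), a log2 fold change of 0.72 (SE 0.05, 95% interval 0.63 to 0.82, adjusted p = 2.6e-17). LPCAT3 inserts polyunsaturated acyl chains into lysophospholipids. Its levels were 32.6, 32.8, 36.6, 26.8 and 27.1 CPM in T24 and 47.2, 45.2, 49.6, 46.8 and 49.5 CPM in T24R2, again without overlap. The mean went from 31.2 ± 4.17 to 47.6 ± 1.89 CPM, a log2 fold change of 0.61 (SE 0.08, 95% interval 0.46 to 0.77, adjusted p = 3.4e-09), and the lower bound lies under the fold change minimum. The libraries of T24 were more scattered for LPCAT3, with a coefficient of variation of 13.4% against 3.97% in T24R2. LPCAT3 shares 66.0% of its exon bases with EMG1 on the opposite strand. With the counts of EMG1 taken off by shared bases its log2 ratio was 1.45, as described further on.

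The monounsaturated arm was divided, with ACSL3 higher and MBOAT1 lower in T24R2. ACSL3 activates fatty acids at the endoplasmic reticulum and lipid droplets and supplies monounsaturated acyl-CoA. Its levels were 74.4, 82.8, 81.7, 89.2 and 86.9 CPM in T24 and 141, 159, 147, 158 and 161 CPM in T24R2. The groups were well apart. The mean went from 83.0 ± 5.68 to 153 ± 9.01 CPM, a log2 fold change of 0.88 (SE 0.05, 95% interval 0.78 to 0.99, adjusted p = 4.5e-18). Its absolute log2 fold change was at percentile 69.6 of all genes tested.

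MBOAT1 and MBOAT2 are acyltransferases that place monounsaturated chains in phosphatidylethanolamine. MBOAT1 was at 9.34, 12.8, 13.1, 11.5 and 15.3 CPM in T24 and at 4.95, 7.20, 8.93, 8.11 and 6.59 CPM in T24R2. The highest T24R2 library lay just under the lowest T24 library, and the counts behind these values were only 54 to 142 per library. The mean fell from 12.4 ± 2.21 to 7.15 ± 1.52 CPM, a log2 fold change of -0.79 (SE 0.15, 95% interval -1.10 to -0.49, adjusted p = 8.9e-06). MBOAT2, the more abundant paralog, was at 95.4, 89.2, 101, 102 and 96.3 CPM in T24 and at 65.8, 73.9, 66.3, 73.3 and 71.8 CPM in T24R2. All T24R2 libraries were below all T24 libraries, but the change did not reach the fold change minimum. The mean was 96.7 ± 5.02 CPM in T24 and 70.2 ± 3.88 CPM in T24R2, which is 72.6% of the T24 level, with a log2 fold change of -0.46 (SE 0.05, 95% interval -0.57 to -0.35, adjusted p = 8.6e-10).

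The balance between enzymes of the same class was described with log2 ratios of counts per exon base, without a test. ACSL4 over ACSL3, which contrasts polyunsaturated with monounsaturated activation, was 1.43 ± 0.09 in T24 (range 1.32 to 1.53) and 1.27 ± 0.05 in T24R2 (range 1.21 to 1.36), so the ranges shared values. In linear terms ACSL4 exceeded ACSL3 by 2.701-fold in T24 and 2.42-fold in T24R2. MBOAT1 over MBOAT2 was -1.97 ± 0.28 in T24 and -2.31 ± 0.31 in T24R2, and these ranges overlapped as well. The activating enzymes ACSL4 and ACSL3 thus both rose. MBOAT1 fell, and MBOAT2 was also lower in every T24R2 library, but by less than the fold change minimum.

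The 3 genes of the radical-trapping arm were not called in either direction. AIFM2, also known as FSP1, is an NAD(P)H oxidoreductase that regenerates reduced coenzyme Q and vitamin K at membranes. Its levels were 20.8, 25.1, 22.3, 24.1 and 23.3 CPM in T24 and 16.4, 17.8, 15.7, 16.8 and 17.8 CPM in T24R2. All T24R2 libraries were below all T24 libraries, by less than the fold change minimum. The mean was 23.1 ± 1.69 CPM in T24 and 16.9 ± 0.889 CPM in T24R2, which is 73.1% of the T24 level, with a log2 fold change of -0.45 (SE 0.09, 95% interval -0.64 to -0.27, adjusted p = 3.1e-05). AIFM2 shares 19.2% of its exon bases with MACROH2A2 on the opposite strand, but these are 6.58% of the exon bases of MACROH2A2. The log2 ratio of AIFM2 was -0.41 with the counts of that gene taken off by shared bases, and it turned to 1.16 with all of them taken off, more than the shared bases would hold.

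DHODH, the dehydrogenase of pyrimidine synthesis that passes electrons to coenzyme Q in the inner mitochondrial membrane, was at 13.1, 14.2, 15.4, 13.2 and 11.8 CPM in T24 and at 14.1, 11.7, 11.3, 10.6 and 14.6 CPM in T24R2. The groups overlapped widely. The means were 13.5 ± 1.36 and 12.5 ± 1.77 CPM, with a log2 fold change of -0.12 (SE 0.12, 95% interval -0.36 to 0.12, adjusted p = 0.357), an interval that lies within the fold change minimum on both sides. With library size as the only scaling, which moved the median over all genes from 0.01 to 0.18 on the log2 scale, the value for DHODH was 0.043, so no direction is given for it.

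GCH1, the entry enzyme of tetrahydrobiopterin synthesis, was at 6.54, 11.2, 9.48, 9.57 and 11.9 CPM in T24 and at 8.17, 7.46, 7.49, 8.02 and 8.06 CPM in T24R2. T24 replicate 1 lay below all T24R2 libraries and the other T24 libraries lay above them, on 63 to 110 counts per library. The means were 9.73 ± 2.06 and 7.84 ± 0.340 CPM, with a log2 fold change of -0.31 (SE 0.14, 95% interval -0.60 to -0.02, adjusted p = 0.0512). Without T24 replicate 1 the log2 fold change was -0.43 (adjusted p = 0.00579), and with RLE scaling it was -0.32 (adjusted p = 0.0478), in both cases still under the fold change minimum. Other settings moved it the other way, to -0.15 with library size only (adjusted p = 0.357) and -0.24 with upper-quartile scaling (adjusted p = 0.138). Without T24 replicate 5 it was -0.23 (adjusted p = 0.169). T24 replicate 1 was also the lowest T24 library for ACSL3, MBOAT1 and AIFM2.

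**Figure D3:**
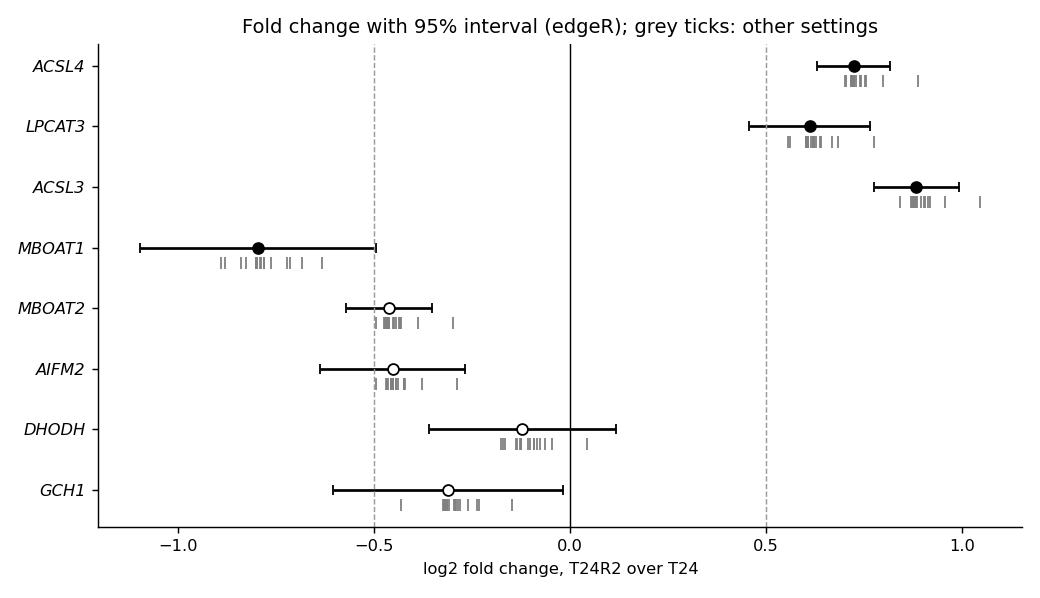
Log2 fold change of each gene in T24R2 over T24 (horizontal axis) from edgeR with its 95% interval, filled where called, and grey ticks for the other settings and left-out libraries. Dashed lines mark the fold change minimum of 0.5. In every setting in which they were tested, ACSL4, LPCAT3 and ACSL3 lie to the right of it (lowest values 0.70, 0.56 and 0.84). MBOAT1 lies to the left in every setting in which it was tested (highest value -0.63), and the ticks of DHODH fall on both sides of 0.

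Reads were assigned by strand although the library kit is not described as strand-specific, so reads of a gene and of its antisense partner cannot be told apart with certainty. ACSL4, MBOAT2, DHODH and GCH1 have 0 exon bases in common with genes of the other strand. LPCAT3 shares 3096 bases, 66.0% of its exons, with EMG1 (ENSG00000126749.16), a ribosome biogenesis methyltransferase. EMG1 was at 52.1 ± 2.09 CPM in T24 and 66.6 ± 3.13 CPM in T24R2 (log2 fold change 0.36, SE 0.06, adjusted p = 9.8e-07), above LPCAT3 in both lines. With the counts of EMG1 taken off in proportion to its shared bases, the log2 ratio of LPCAT3 was 1.45 in place of 0.61. Such a subtraction treats every count of the opposite-strand gene as its own, with even coverage, which was not tested. The values it gives are therefore not corrected estimates. Taking off all counts of EMG1 would leave none for LPCAT3, so no value was computed for that case, and how much of the LPCAT3 signal is its own is not known from these counts. AIFM2 shares 986 bases, 19.2% of its exons, with MACROH2A2 (ENSG00000099284.15), a histone variant gene that fell from 18.8 ± 2.78 to 7.12 ± 1.06 CPM (log2 fold change -1.40, SE 0.13, adjusted p = 1.2e-12). ACSL3 shares 2.79% of its exon bases with ACSL3-AS1, which had 0 to 4 counts per library. MBOAT1 shares 0.971% with ENSG00000227803, which had 1 to 12 counts per library.

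Genes that act beside the 8 were described with 11 lists of 121 genes, of which 100 were tested. Of these, 29 were called higher and 24 lower in T24R2, together 53.0%, against the 51.4% of all genes, and their median log2 fold change was 0.16. Counts below are calls in each direction, and no list was tested as a set. Called genes given by name without their levels, and those noted as such, were named after their values were seen. Of the 53 called genes, 42 were called under every other scaling, test and left-out library run, and 0 changed direction. The calls of SLC27A1, MBOAT7, SCD5, FAR1 and PTS were lost with library size only, that of FAR2 with library size only or upper-quartile scaling, and those of SLC27A3 (without T24 replicate 1 or T24R2 replicate 2 or 4) and TK2 (without T24 replicate 5 or T24R2 replicate 3 or 5) when single libraries were left out. Those of COQ2, COQ10A and GPX4 are given with their lists. Of the called genes named below, VKORC1 and GCHFR have the largest shares of exon bases overlapped from the opposite strand. They are followed by ACSBG1 (32.01%), AGPAT1 (30.3%), NQO1 (19.4%), ALOX12 (18.5%) and TK2 (15.6%). The other called genes have 10.3% (FAR2) or less, and the part of reads from the opposite strand was not tested for any of them.

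Among the acyl-CoA synthetases, 3 of 9 tested genes rose (ACSL6, ACSBG1 and SLC27A3) and 2 fell (ACSL5 and SLC27A1; median 0.28). ACSL1, another long-chain synthetase, was at 52.2 ± 1.43 CPM in T24 and 53.7 ± 2.92 in T24R2 (log2 fold change 0.04, adjusted p = 0.571). ACSL5, a mitochondrial and endoplasmic reticulum synthetase, fell from 33.4 ± 2.68 to 1.61 ± 0.393 CPM (log2 fold change -4.37, SE 0.14, adjusted p = 2.7e-27). The fatty acid transporter and synthetase SLC27A4 was at 39.3 ± 3.93 and 52.9 ± 3.67 CPM, without a call here but with one under library-size and upper-quartile scaling. ACSL6, named after its values were seen, had at most 1 count in a T24 library and 12.2 CPM in T24R2, at least 38.0-fold higher when T24 is set at 3 counts per library.

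Lysophospholipid acyltransferases other than LPCAT3, MBOAT1 and MBOAT2 were called in 7 of 10 tested genes, against 51.4% of all genes. Of the 7, 3 were higher (LPGAT1, LCLAT1 and AGPAT1) and 4 lower (LPCAT1, LPCAT4, MBOAT7 and AGPAT2), and the median of the list was 0.29. LPCAT1 and LPCAT4 act mainly on phosphatidylcholine and related lipids, the former with saturated chains. LPCAT4 fell from 93.8 ± 3.63 to 22.1 ± 2.34 CPM (log2 fold change -2.08, SE 0.07). MBOAT7, which places arachidonic acid in phosphatidylinositol, fell from 124 ± 4.97 to 80.8 ± 6.13 CPM (log2 fold change -0.62, SE 0.05; -0.46 with library size only). AGPAT2, an acyltransferase of phosphatidic acid synthesis, fell from 79.5 ± 7.18 to 46.9 ± 5.82 CPM (log2 fold change -0.76, SE 0.07). The acyltransferases of this list thus went both ways, as did LPCAT3 and MBOAT1.

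Of 11 desaturases and elongases tested, 3 rose (SCD, FADS2 and ELOVL7) and 2 fell (SCD5 and ELOVL6; median 0.12). SCD, the desaturase that makes the monounsaturated chains ACSL3 activates, rose from 88.1 ± 5.97 to 826 ± 13.2 CPM (log2 fold change 3.23, SE 0.05, adjusted p = 1.1e-38). FADS2, which desaturates polyunsaturated precursors, was named after its values were seen and rose from 41.1 ± 4.69 to 82.7 ± 3.14 CPM (log2 fold change 1.01, SE 0.06). ELOVL1, an elongase of very long saturated chains, was at 107 ± 4.77 and 76.9 ± 2.59 CPM (log2 fold change -0.48), under the fold change minimum here and over it without T24 replicate 4. The ether phospholipid enzymes, which build another pool of polyunsaturated lipid, were called in 4 of 9, with AGPS and SELENOI higher and FAR1 and FAR2 lower (median 0.16). AGPS, which makes the ether bond in peroxisomes, rose from 67.4 ± 3.89 to 186 ± 5.05 CPM (log2 fold change 1.47, SE 0.05). FAR1, which supplies its fatty alcohol, fell from 129 ± 8.28 to 85.7 ± 1.80 CPM (log2 fold change -0.59, SE 0.05; -0.42 with library size only), and GNPAT, the partner acyltransferase, was at 49.7 ± 2.23 and 58.5 ± 7.25 CPM without a call.

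Of the genes of lipid peroxidation and its repair by hydrolysis, 5 of 10 were tested, since most lipoxygenases had few counts. ALOX15 had at most 1 count in any library. PEBP1, a scaffold of lipoxygenases, rose from 185 ± 7.30 to 332 ± 6.42 CPM (log2 fold change 0.85, SE 0.04), and POR, the cytochrome P450 reductase that can start lipid peroxidation, rose from 33.2 ± 1.04 to 50.2 ± 3.19 CPM (log2 fold change 0.59, SE 0.07). ALOX12, a platelet-type lipoxygenase named after its values were seen, fell from 7.02 ± 0.983 to 3.76 ± 0.565 CPM (log2 fold change -0.90, SE 0.18), and the other 2 tested genes, CYB5R1 and PLA2G6, were not called (median 0.21).

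Of the 13 tested genes of the coenzyme Q list, whose product AIFM2 and DHODH reduce, 30.8% were called, against 51.4% of all genes. STARD7 and COQ8B were higher and COQ2 and COQ10A lower (median 0.08). The calls of COQ2 and COQ10A were lost under library-size and upper-quartile scaling, that of COQ2 also with a mean of at least 100 counts and without T24 replicate 4 or T24R2 replicate 5, and that of COQ10A without T24 replicate 5 or T24R2 replicate 2. STARD7, which carries phosphatidylcholine and coenzyme Q between mitochondria and other membranes, rose from 87.0 ± 6.61 to 200.1 ± 7.12 CPM (log2 fold change 1.20, SE 0.05, adjusted p = 4.5e-23). COQ5, a methyltransferase of the pathway, was at 27.4 ± 1.86 and 31.4 ± 2.55 CPM without a call. Among the other quinone oxidoreductases and the enzymes that anchor AIFM2 to membranes, 3 of 11 rose (NQO1, NQO2 and NMT1) and 3 fell (VKORC1, CYB5R3 and SQOR; median 0.24). NQO1, a cytosolic quinone reductase, rose from 346 ± 13.7 to 1041 ± 8.09 CPM (log2 fold change 1.59, SE 0.04, adjusted p = 1.4e-30). VKORC1 shares 58.0% of its exon bases with the opposite strand. NMT2, a myristoyltransferase, was at 231 ± 13.6 and 209 ± 10.4 CPM without a call.

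In the pyrimidine list around DHODH, 3 of 9 genes rose (CAD, UMPS and TK2) and 3 fell (TK1, CTPS2 and SLC29A1; median -0.10). The called genes named by the rule act in salvage rather than synthesis. Thymidine kinase TK1 fell from 252 ± 18.5 to 90.9 ± 3.82 CPM (log2 fold change -1.47, SE 0.05) and the nucleoside transporter SLC29A1 fell from 110.1 ± 5.70 to 25.4 ± 2.68 CPM (log2 fold change -2.11, SE 0.07, adjusted p = 1.1e-27). CAD and UMPS, the enzymes before and after DHODH, were named after their values were seen and rose from 81.2 ± 7.02 to 132 ± 8.43 CPM and from 29.6 ± 1.09 to 45.5 ± 3.28 CPM. DHODH, between them in the pathway, was not called.

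Of the tetrahydrobiopterin list around GCH1, 8 of 16 genes were tested, as the enzymes that use the cofactor had few counts or none. PCBD2, a dehydratase paralog, rose from 5.11 ± 0.947 to 34.2 ± 2.10 CPM (log2 fold change 2.74, SE 0.11, adjusted p = 1.4e-23), and PTS and GCHFR fell (median 0.04). GCHFR, the feedback regulator of GCH1, was named after its values were seen and went from 13.1 ± 1.99 to 2.29 ± 0.417 CPM (log2 fold change -2.51, SE 0.17), with 77.6% of its exon bases overlapped from the opposite strand. PCBD1, the paralog of PCBD2, was at 59.8 ± 5.34 and 42.6 ± 2.36 CPM, under the fold change minimum here and over it without some replicates.

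All 6 genes of the cystine, glutathione and GPX4 arm were called, 4 higher (SLC7A11, SLC3A2, GCLC and GCLM) and 2 lower (GSS and GPX4), with a median of 1.42. Among all genes tested 51.4% were called, and this short list was chosen with earlier results of these data known, that of SLC7A11 included. SLC7A11, the cystine transporter that the study followed in these lines, was at 57.8 ± 5.79 CPM in T24 and 481 ± 31.4 in T24R2, and its partner SLC3A2 rose from 255 ± 4.93 to 504 ± 26.2 CPM (log2 fold change 0.98, SE 0.04). GPX4, the peroxidase, fell from 213 ± 16.5 to 149 ± 14.9 CPM (log2 fold change -0.52, SE 0.06). This call lay close to the minimum and was lost under library-size scaling (-0.36), upper-quartile scaling, a mean of at least 100 counts and without T24 replicate 1 or 4 or T24R2 replicate 2 or 4. Of 9 tested transcription factors reported to act on the 8 genes, 3 rose, NFE2L2 and SREBF1 among them, and PPARG fell (median 0.26). NFE2L2 rose from 98.9 ± 2.32 to 280.1 ± 23.3 CPM (log2 fold change 1.50, SE 0.05), and YAP1 was at 207 ± 14.3 and 250.2 ± 4.69 CPM without a call. SREBF1, the sterol and fatty acid synthesis factor, and PPARG, a lipid receptor factor, were named after their values were seen, at log2 fold changes of 1.51 (SE 0.05) and -1.54 (SE 0.07). ESR1 had at most 4 counts in T24 and 7 in T24R2 and was not tested.

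**Figure D4:**
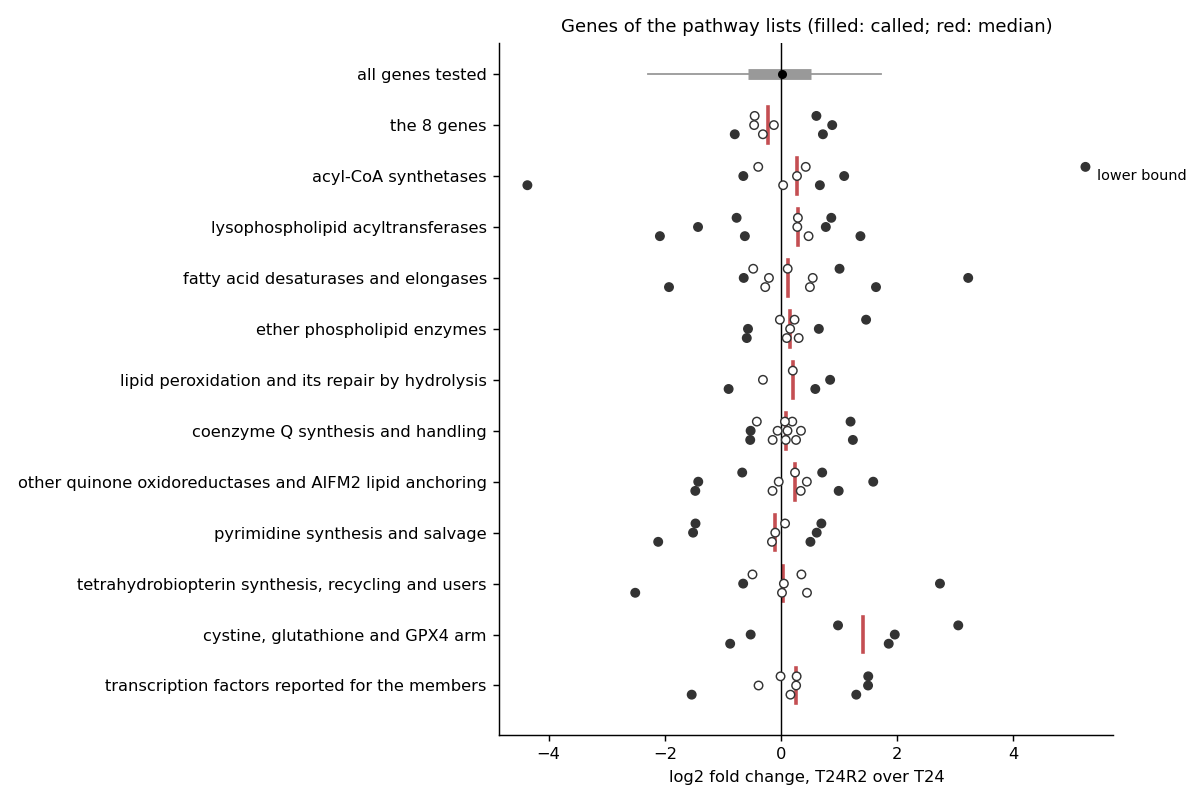
Log2 fold change in T24R2 over T24 of the tested genes in each list (points, filled where called, red line at the median), with the 8 genes near the top and, above them, the 5 to 95 and 25 to 75 percentiles and median of all genes tested in grey. ACSL6 is drawn at its lower bound of 5.25. The median of the cystine, glutathione and GPX4 arm is 1.42, whereas the other lists and the 8 genes have medians between -0.22 and 0.29. The lists were chosen with earlier results of these data known.

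The tested genes within 1 Mb of each of the 8 were compared with it, as a description of its position. Over all genes tested, 24.9% were called higher and 26.5% lower. ACSL4 had 4 such neighbours, 1 of them higher and none lower (median log2 fold change 0.24), and ACSL3 had 4, with 1 higher and 2 lower (median -0.20). LPCAT3 lies in a dense region with 51 neighbours, of which 8 rose and 17 fell (median -0.08). AIFM2 had 16 neighbours, 2 higher and 7 lower (median -0.43), and the 9 within 0.5 Mb held 6 that fell and 0 that rose (median -1.16). Those 6, named after their values were seen, were COL13A1, MACROH2A2, TYSND1, SAR1A, PPA1 and LRRC20, with log2 fold changes of -0.63 (PPA1) to -2.77 (LRRC20). MBOAT1 had 1 tested neighbour, the cell cycle factor E2F3, which rose by 0.73 on the log2 scale. The neighbours of MBOAT2 (11, median 0.04), DHODH (18, median 0.11) and GCH1 (15, median -0.12) had medians close to 0. The medians depended on the window, since within 2 Mb those of ACSL3 and LPCAT3 turned to 0.17 and 0.025 and that of ACSL4 was 0.10.

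**Figure D5:**
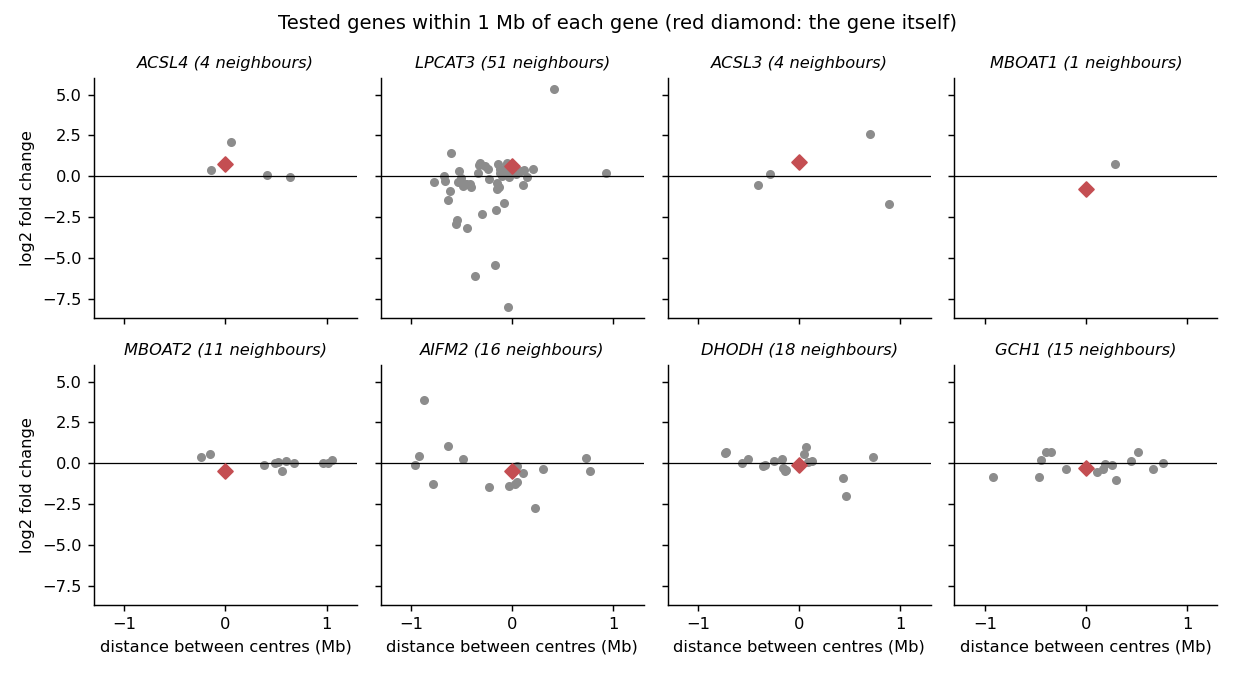
Log2 fold change (vertical axis) of the tested genes within 1 Mb of each gene (grey) against the distance between gene centres in Mb, with the gene itself as a red diamond. Around AIFM2 most of the 9 genes within 0.5 Mb lie below 0 (median -1.16), whereas LPCAT3 at 0.61 sits among neighbours with a median of -0.08.

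For each of the 8, the genes with the most similar pattern were sought over the 10 libraries among the 6531 genes averaging 32 CPM or more, by the distance between log2 levels centred on T24, where 0 is identity. ACSL4 was nearest to BROX (distance 0.09) and the splicing factor SRSF1 (0.12), ACSL3 to LIMS1 (0.16) and the integrin ITGAV (0.17), and LPCAT3 to the RNA methyltransferase NSUN2 (0.25) and the importin IPO8 (0.26). MBOAT2 was nearest to SP1, a factor that binds GC boxes (0.10), and the mitochondrial fusion gene OPA1 (0.15), and AIFM2 to the channel PANX1 (0.17) and MPV17 (0.20). The nearest genes to MBOAT1 were KIF20B and ANLN, which act in cytokinesis, at 0.54 and 0.54. DHODH was nearest to TRIB3 (0.34) and FAM98A (0.35), and GCH1 to TMUB2 (0.40) and SORT1 (0.46). The distances were larger for the genes with few counts, and with 10 libraries in 2 lines most of a pattern is the difference between the lines.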

How the data were processed

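RNA-seq libraries of T24 (n = 5) and T24R2 (n = 5) were analysed. The authors aligned paired reads to hg38 with STAR 2.7.0, used samtools 1.10 to remove duplicates and reads that did not map uniquely and deposited raw counts of fragments per gene of GENCODE 39, made by featureCounts 2.0.1 with strand option 1. Removing duplicates by position can lower the counts of abundant genes. Counts were used as deposited, with symbols assigned by Ensembl identifier (61369 of 61533 genes), and no row lacked an identifier (0 rows). The lines were compared with edgeR 4.0.16 in R 4.3.3 (filterByExpr, TMM, glmQLFit and glmQLFTest) and Benjamini-Hochberg adjustment. The thresholds were an adjusted p of 0.05 and an absolute log2 fold change of 0.5, as in the methods of the study. CPM used TMM-scaled library sizes. TMM factors were 0.936 to 0.951 in T24 and 1.04 to 1.07 in T24R2, mitochondrial genes took 2.35% to 2.97% of counts, and the common biological coefficient of variation was 6.61%. All 20 replicate pairs differed by more than counting error (chi-square divided by its degrees of freedom, 2.01 to 7.04). This does not show that they were separate cultures. Each library was counted as a replicate, as labelled.

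Alternatives were library size only, upper-quartile and RLE scaling, DESeq2 1.42.0 with and without normal shrinkage, limma-voom (limma 3.58.1), no filter on counts, a minimum mean of 100 counts, a replicate block, other thresholds, removal of genes overlapped on the opposite strand and each library left out in turn. Taking off the counts of opposite-strand genes was chosen after seeing the data. Overlaps were computed with bedtools 2.31.1 from exon coordinates in the tables. Other steps used Python 3.11.15 with pandas 2.3.3, numpy 2.4.6 and SciPy 1.17.1, and plots used matplotlib 3.10.9.

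The 8 genes and the lists were chosen with earlier results of these data known. Named besides them were, in each list, the 2 genes with the highest mean TPM and the gene with the smallest adjusted p, the 2 nearest patterns of each of the 8 genes, and genes overlapping them on the opposite strand. The results of some genes that this rule or the lists cover are left out. Promoter sequences came from RefSeq (GRCh38.p14). Floors cover counting error only, whereas standard errors and 95% intervals of fold changes include the spread between libraries.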

Additional observations from a re-analysis of the deposited data

Results flagged for a closer look

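With 22 groups of 5 libraries examined, 2 had a library whose gap to the nearest of the others was above the Dixon limit, where chance gives about 1 in 20 groups, or 1.1 of the 22. ACSL4 in T24R2 replicate 1 was at 235 CPM, while the other T24R2 libraries were at 258 to 264 CPM. Without this library the log2 fold change of ACSL4 was 0.76 in place of 0.72. In T24R2 replicate 3, the 10 genes with the highest counts held 7.69% of all counts, against 7.04% to 7.19% in the other T24R2 libraries.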

How the results depend on the processing

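The count of 4 called genes of the 8, 3 higher and 1 lower, was the same under every other scaling and test, without a count filter and without each replicate in turn. Of the 8, a mean of at least 100 counts left 6 to be tested and 0 called lower, since MBOAT1 and GCH1 were not tested, with 4991 genes called in all. Without genes overlapped on the opposite strand, 4 of the 8 were tested and 1 was called, 1 higher and 0 lower, with 4302 of 8141 genes and 24 list genes called. An absolute log2 fold change over 1 left 4211 genes, 28 list genes and 0 of the 8, with 0 higher and 0 lower. With no fold change minimum, 3 of the 8 were lower (MBOAT1, MBOAT2 and AIFM2) and 82 list genes were called. DHODH turned to 0.043 with library size only, and AIFM2 turned to 1.16 with all counts of its opposite-strand gene taken off. The median of the neighbours of MBOAT1 was -0.013 within 2 Mb (8 genes).

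Leaving out each library gave 8398 to 8466 genes called, 51 to 57 list genes, and 4 of the 8 each time (4 to 4), 3 higher (3 to 3) and 1 lower (1 to 1). The log2 ratio of ACSL4 to ACSL3 shifted by -0.19 to -0.14 between the lines and that of MBOAT1 to MBOAT2 by -0.45 to -0.24. Replicates with the same number did not deviate together (correlations -0.02 to 0.05), and number 1 alone was best matched by its own number. With a replicate block, 8240 genes, 53 list genes and 4 of the 8 were called. Counts of 54 to 154 per library limited MBOAT1, DHODH and GCH1, whose standard errors were 0.12 to 0.15.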
